A study of Homo sapiens with 7 samples.

Results

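The BCL2 family decides whether a cell commits to the mitochondrial route of apoptosis. Of the 22257 genes measured, 10 of this family are described here: the anti-apoptotic members BCL2, BCL2L1 (BCL-XL), MCL1 and BCL2A1 (BFL-1), and the BH3-only members BID, BCL2L11 (BIM), BBC3 (PUMA), BMF, HRK and BIK. They were found by gene symbol, which matched 25 of 34917 RefSeq transcripts, and each gene is represented by its transcript with the highest mean read count over all libraries. RNA-seq read counts were available for 7 libraries of 2 lymphoma cell lines, RL and JeKo-1, both called mantle cell lymphoma lines in the labels. Cell banks list a line named RL under another B-cell lymphoma, and the identity of the line was not tested here beyond the markers below. The groups were RL cells given a BTK inhibitor for 6 h (2 libraries), untreated RL cells (2 libraries), JeKo-1 cells given the BTK inhibitor for 6 h (2 libraries) and untreated JeKo-1 cells (1 library). The study's title names the agent as ibrutinib, a covalent inhibitor of Bruton tyrosine kinase, which relays signals from the B-cell receptor. The dose and any vehicle for the untreated cells are not given in the sources used here. The labels do not say whether libraries of one group are separate cultures, and the p-values therefore reflect library-to-library spread alone, possibly technical.

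With 1 transcript counted for each gene, depth was 19.1 and 33.5 M reads in treated RL cells, 24.2 and 25.9 M in untreated RL cells, 23.3 and 24.0 M in treated JeKo-1 cells and 24.4 M in untreated JeKo-1 cells. Levels are given as CPM, reads scaled to the library's total over all transcripts with edgeR's TMM factors, and as CPM per kilobase of transcript where genes are compared with each other. Across RL libraries 8 B-cell markers summed to between 2670 and 3084 CPM, and across JeKo-1 libraries to between 1521 and 1592 CPM. CCND1, SOX11 and CD5, the mantle cell lymphoma markers, totalled 718 to 855 CPM per RL library and 415 to 469 CPM per JeKo-1 library. CD5 was nearly absent from JeKo-1, at 0.102 to 0.283 CPM, beside 14.8 to 18.2 CPM in RL. None of the lists for erythroid, myeloid, or T and NK cells exceeded a total of 2.89 CPM in any library. The epithelial and stromal list totalled 89.3 to 93.1 CPM in RL libraries, most of it EPCAM, but only 0.311 to 1.83 CPM in JeKo-1 libraries, which had no EPCAM read.

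In this pathway BAX and BAK1 permeabilise the outer mitochondrial membrane and release cytochrome c. The anti-apoptotic members bind and restrain them, and the BH3-only members either occupy the anti-apoptotic proteins or activate BAX and BAK1 directly. In B cells, signals from the antigen receptor are known to raise BCL2A1 through NF-kB, whereas BCL2L11, BBC3 and BMF are known to rise when survival signals are withdrawn, in part through FOXO factors.

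The promoters of BCL2A1, the gene with the largest fall, and of BCL2L11, BMF and BBC3, BH3-only genes that rose after treatment, are shown first, as the 250 bases upstream of the start site, 5′ to 3′ on the strand of the gene (RefSeq, GRCh38.p14). Of the 10 genes, 8 had entries in the promoter table, 14 entries in all; MCL1 and BIK were not among them. For BMF the more upstream of its listed starts is shown. Capitals mark matches, on either strand, to 3 letter patterns in which N is any base: TGTTTAC (FOXO type), GGG, 5 bases of any kind and CC (NF-kB type) and TGANTCA (AP-1 type).
BCL2A1 promoter, chr15:79971197-79971446, minus strand: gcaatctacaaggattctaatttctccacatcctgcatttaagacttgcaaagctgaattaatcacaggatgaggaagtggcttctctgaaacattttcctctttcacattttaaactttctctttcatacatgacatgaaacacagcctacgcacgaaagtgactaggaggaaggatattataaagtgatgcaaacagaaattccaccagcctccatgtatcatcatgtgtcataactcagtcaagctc
BCL2L11 promoter, chr2:111120664-111120913, plus strand: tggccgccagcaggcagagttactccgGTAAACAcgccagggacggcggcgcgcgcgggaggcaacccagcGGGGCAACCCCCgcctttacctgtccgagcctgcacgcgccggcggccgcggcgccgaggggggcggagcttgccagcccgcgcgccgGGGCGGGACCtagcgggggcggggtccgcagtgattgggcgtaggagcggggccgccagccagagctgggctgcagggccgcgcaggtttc
BMF promoter, chr15:40108880-40109129, minus strand: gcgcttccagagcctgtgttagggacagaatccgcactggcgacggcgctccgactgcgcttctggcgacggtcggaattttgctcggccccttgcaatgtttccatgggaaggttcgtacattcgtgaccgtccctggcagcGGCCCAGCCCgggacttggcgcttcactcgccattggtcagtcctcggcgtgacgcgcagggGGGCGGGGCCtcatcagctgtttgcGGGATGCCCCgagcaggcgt
BBC3 promoter, chr19:47232668-47232917, minus strand: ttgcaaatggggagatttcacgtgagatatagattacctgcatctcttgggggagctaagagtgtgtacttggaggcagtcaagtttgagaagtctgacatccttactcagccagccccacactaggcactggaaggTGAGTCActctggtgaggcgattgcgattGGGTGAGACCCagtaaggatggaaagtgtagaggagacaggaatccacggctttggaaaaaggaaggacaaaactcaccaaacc
The BCL2L11 promoter held the FOXO-type letters, read on the opposite strand as GTAAACA, at 223 to 217 bases before the start site, a pattern found in 2.98% of 35116 promoter windows of the same length. The BBC3 promoter held the AP-1-type TGAGTCA at 113 to 107 bases before the start, a pattern found in 6.57% of windows. The NF-kB-type pattern was in the BCL2L11, BMF and BBC3 windows, with overlapping matches within BCL2L11, and in 54.4% of all windows. The BCL2A1 window held none of the 3 patterns. Of the windows not printed, those of HRK, which rose most, of BCL2L1 and of the other BMF start held none either. The BCL2 window held the NF-kB-type pattern, as did those of BID. BCL2 rose in RL, and BID fell. These are descriptions of the letters in these windows, with no measurement of binding.

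Most of the family differed between treated and untreated RL cells. At 6 h, 8 of the 10 genes passed the test (edgeR quasi-likelihood, Benjamini-Hochberg adjusted p under 0.05 over 25099 transcripts), 6 higher and 2 lower, where 30.4% of the 14932 genes tested passed, 15.1% higher and 15.3% lower. BCL2A1 had the largest fall, and BCL2, MCL1, BCL2L11, BBC3, BMF and HRK rose. The median log2 fold change of the 10 genes was 0.38, beside 0.01 over all genes tested. In bulk RNA, fewer cells that express a gene and less of its RNA per cell cannot be told apart. In JeKo-1, 5 of the 8 genes that passed the filter on low counts passed the test, 3 higher (BCL2L1, BMF, HRK) and 2 lower (BID, BIK), where 28.3% of 14050 genes passed, 13.4% higher and 14.9% lower. The median of those 8 genes was 0.20 on the log2 scale, beside -0.01 over all genes tested. The JeKo-1 comparison rests on 1 control library, whose spread was taken to equal that of the treated libraries. Its p-values are those of a normal distribution of log2 fold change over SE. They therefore rest on a spread pooled over transcripts, and do not measure each gene's own spread between libraries, however small they are. With DESeq2 2 genes passed, and with limma on the authors' log2 values 0 did (3 at an unadjusted p under 0.05). Below, the order or non-overlap of groups of 1 or 2 libraries describes the values and is not a test.

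**Figure D1:**
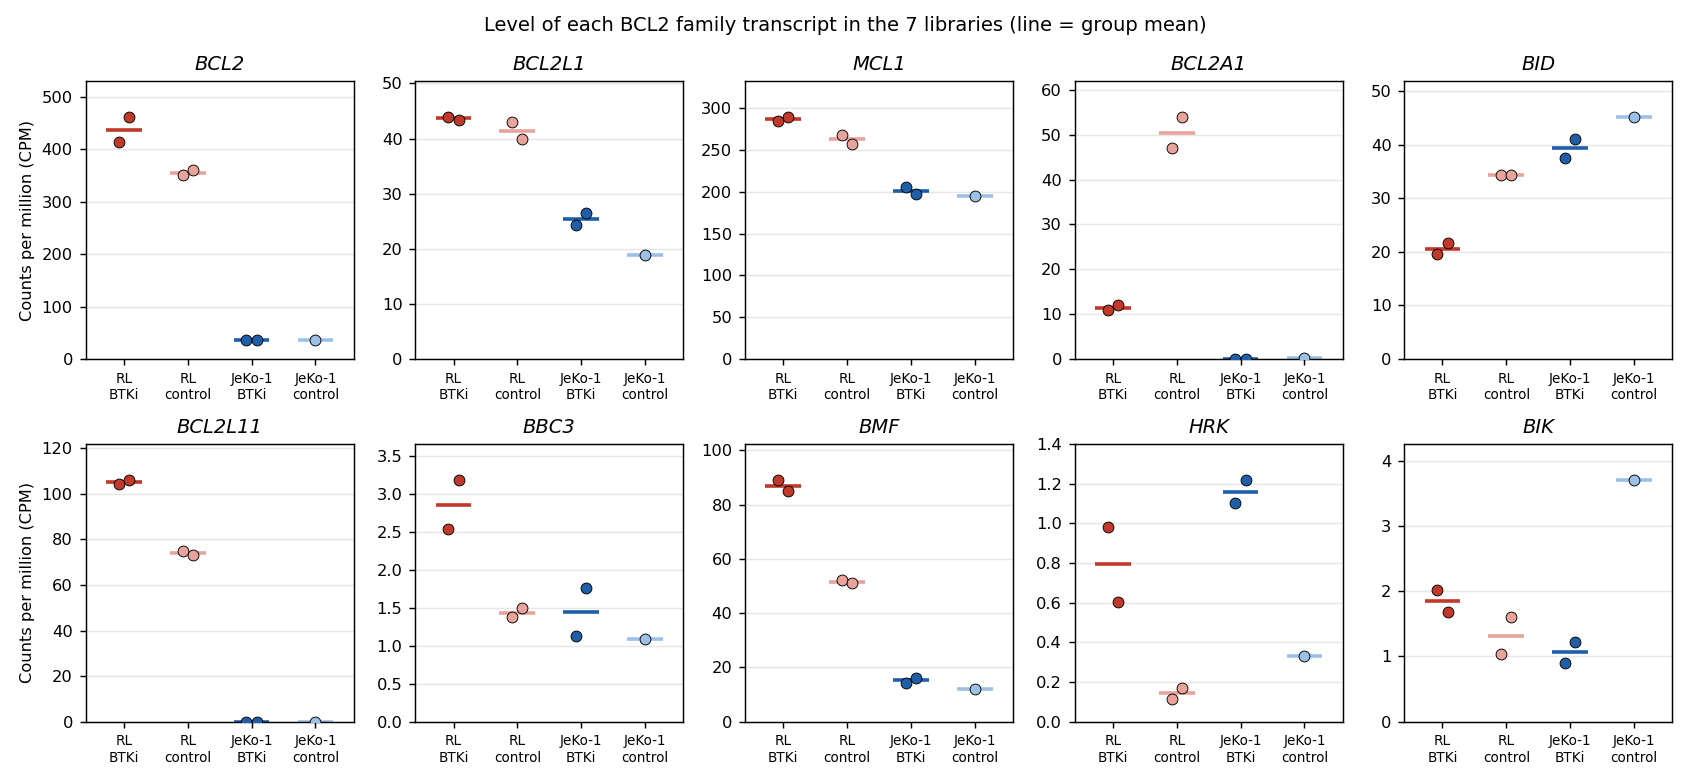
Level in CPM (vertical axes, starting at 0, each panel with its own scale) of the 10 BCL2 family genes in each of the 7 libraries; points are libraries and bars are group means. BCL2A1 is near 11.5 CPM in treated RL and 50.4 CPM in untreated RL, and BCL2L11 is at 0 in all 3 JeKo-1 libraries.

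Among the anti-apoptotic genes, BCL2A1 fell steeply. BCL2A1 had 10.9 and 12.1 CPM in treated RL cells, against 47.0 and 53.9 CPM in untreated RL cells, from 377 and 737 reads and from 2043 and 2521 reads. Both treated libraries lay far below both untreated ones, and the log2 fold change was -2.12 ± 0.08 (SE), a 4.35-fold lower level (adjusted p = 1.5e-08). It kept this direction and its call under all 14 alternative settings, at -2.22 to -2.02. BCL2A1 was close to silent in JeKo-1, with 0 and 0 reads in treated cells and 5 reads in untreated cells, which is under the filter on low counts, so its response there was not called. Fits that kept it gave adjusted p = 0.0852 without a filter and 0.0224 in the 4-group model, and DESeq2 gave no adjusted p. The authors' deposited table nevertheless lists a log2 ratio of -2.41 for BCL2A1 in JeKo-1, a value that rests on those 5 reads. BCL2A1 is known as an NF-kB target that protects activated B cells. The genes whose pattern over the 7 libraries was most like it were NOP16, ANKRD33B, DDX21, FCRL4 and BYSL (Pearson r 0.9965 to 0.9988 on log2(CPM + 1) centred within each line, over 10027 genes); the points share libraries and the RL contrast, and r is given as a description.

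BCL2, the first anti-apoptotic member to be described and the target of venetoclax, was far lower in JeKo-1 than in RL. BCL2 had 414 and 461 CPM in treated RL cells, against 352 and 360 CPM in untreated RL cells. The treated libraries were the higher pair without overlap, and the change was 0.31 ± 0.06 on the log2 scale (adjusted p = 0.00146). BCL2 had 35.6 and 36.2 CPM in treated JeKo-1 cells, against 36.6 CPM in untreated JeKo-1 cells. The JeKo-1 libraries were all alike, with a log2 change of -0.04 ± 0.08 (adjusted p = 0.783) and an interval of -0.19 to 0.12 (95%, normal). A shorter transcript of BCL2, NM_000657, which encodes the beta form, had 24.3 and 23.6 reads per 100 reads of the main transcript NM_000633 in treated RL, against 24.7 and 25.02 in untreated RL, and 21.5 and 25.1 in treated JeKo-1, against 22.0 in untreated JeKo-1. This ratio hardly differed between the groups, but transcripts of one gene largely repeat the same reads, so it does not measure their balance. The reads counted for NM_000657 rose by 0.25 ± 0.05 in treated RL (adjusted p = 0.00361), which is not separate evidence for that form.

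MCL1, a short-lived anti-apoptotic protein on which many lymphoma cells depend, changed little. MCL1 had 284 and 289 CPM in treated RL cells, against 268 and 257 CPM in untreated RL cells. The pairs did not overlap, yet the change was small, 0.13 ± 0.05 on the log2 scale, and only just passed the test (adjusted p = 0.0495). It no longer passed under 11 of 14 alternatives, among them each of those that left out a library (adjusted p from 0.0339 to 0.392 over all 14), and the authors' deposited table gives it an FDR of 0.323. In JeKo-1, MCL1 had 205 and 198 CPM in treated cells, against 195 CPM in untreated cells, a log2 change of 0.04 ± 0.06 (adjusted p = 0.677).

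BCL2L1, which encodes BCL-XL, responded in JeKo-1. BCL2L1 had 24.3 and 26.5 CPM in treated JeKo-1 cells, against 18.8 CPM in untreated JeKo-1 cells, and rose by 0.43 ± 0.09 on the log2 scale (adjusted p = 7.0e-05). Both treated libraries exceeded the control. BCL2L1 had 43.9 and 43.4 CPM in treated RL cells, against 43.0 and 39.9 CPM in untreated RL cells, where the change was 0.08 ± 0.06 (adjusted p = 0.299) with an interval of -0.03 to 0.19. The RL treated values lay just above the RL control values. The JeKo-1 call was lost in 1 of 11 alternatives, limma on the authors' log2 values.

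Per unit of transcript length, the make-up of the anti-apoptotic RNA differed between treated and untreated RL cells. BCL2A1 made up 8.51% and 8.93% of the summed CPM per kilobase of the 4 anti-apoptotic genes in treated RL cells, against 30.6% and 34.1% in untreated RL cells. BCL2 made up 35.1% and 37.0% in treated RL cells, against 24.8% and 24.7% in untreated RL cells. MCL1 made up 45.7% and 44.1% in treated RL cells, against 35.9% and 33.5% in untreated RL cells. BCL2A1 thus took the smaller share and BCL2 and MCL1 the larger shares in both treated libraries. The summed level of the 4 genes was 158 and 167 CPM per kilobase in treated RL, against 190 and 195.5 in untreated RL. In JeKo-1, MCL1 alone made up 78.8% and 77.0% in treated cells, against 80.1% in untreated cells. BCL2L1 made up 14.03% and 15.5% in treated JeKo-1 cells, against 11.7% in the untreated library. The JeKo-1 total was 66.3 and 65.3 CPM per kilobase in treated cells, against 61.8 in untreated cells. Shares of one total move against each other, and they were not tested. The shares and totals also depend on the transcript whose length is used. For BCL2A1 that was 0.809 kb, where the GENCODE v29 match of NM_004049, with nearly the same reads, has 1.033 kb. For MCL1 it was 3.932 kb, where the match of NM_182763 has 1.11 kb. Whether a match has the length of the counted transcript was not checked.

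**Figure D2:**
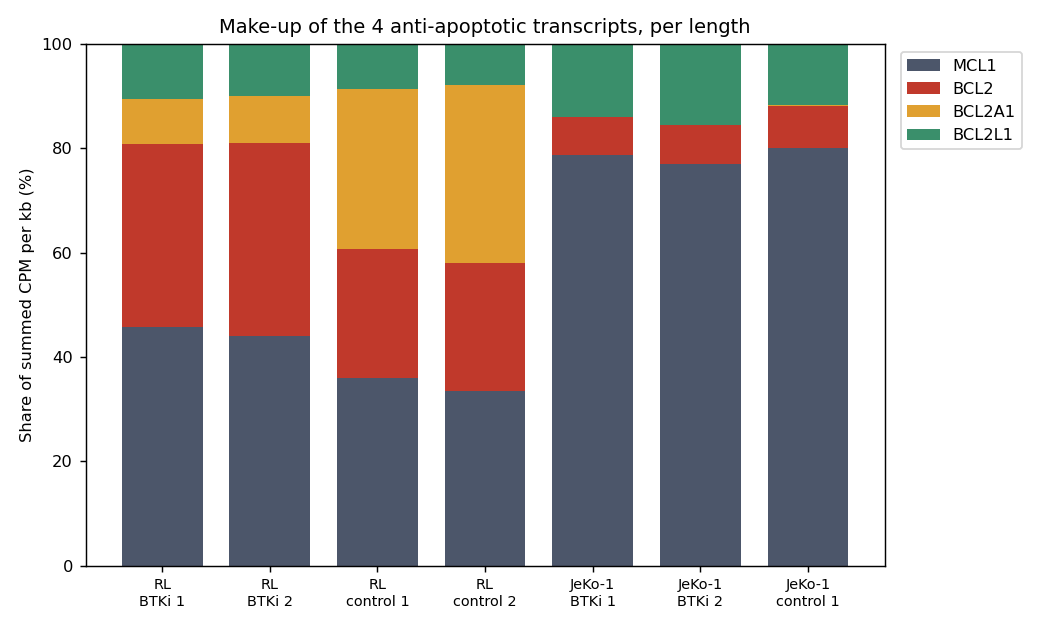
Share (%) of each anti-apoptotic gene in the summed CPM per kilobase of MCL1, BCL2, BCL2A1 and BCL2L1 (vertical axis), by library; each bar is 1 library. The BCL2A1 share is 8.51% and 8.93% in treated RL and 30.6% and 34.1% in untreated RL, and MCL1 makes up 77.0% to 80.1% in JeKo-1.

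Among the BH3-only genes, BCL2L11, BMF, BBC3 and HRK rose in RL, BID fell, and BIK did not pass the test. BCL2L11 encodes BIM, a BH3-only protein central to the death of B cells deprived of receptor signals. BCL2L11 had 104 and 106 CPM in treated RL cells, against 74.9 and 73.3 CPM in untreated RL cells. The pairs were tight and did not overlap, and the rise was 0.51 ± 0.05 on the log2 scale (adjusted p = 1.0e-05), 0.49 to 0.53 under 14 alternatives. NM_207002, a shorter annotated transcript of BCL2L11, had 14.3 and 14.04 reads per 100 reads of NM_138621 in treated RL, against 14.4 and 14.2 in untreated RL. This ratio was nearly the same with and without the inhibitor. Transcripts of one gene largely repeat the same reads, so it does not measure the balance of the transcripts.

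In JeKo-1 not a single read was assigned to BCL2L11 in any of the 3 libraries. Taking 3 reads per library as the floor that a count of 0 allows, treated RL cells were at least 1240-fold higher than treated JeKo-1 cells, and untreated RL cells at least 973-fold higher than untreated JeKo-1 cells. This limit covers counting error only. Of the measured genes next to BCL2L11 on chromosome 2, examined because of this 0, LOC541471 (MIR4435-2HG, a long noncoding RNA) ranged over 5.38 to 6.75 CPM in RL, with 0 reads in all JeKo-1 libraries. ACOXL, on the other side, ranged over 1.65 to 3.32 CPM (RL) and 0.163 to 0.584 CPM (JeKo-1). BUB1, a mitotic checkpoint kinase, lies beyond ACOXL and ranged over 203 to 254 CPM (RL) and 209 to 376 CPM (JeKo-1). ANAPC1, a subunit of the anaphase-promoting complex beyond LOC541471, ranged over 91.2 to 111 CPM (RL) and 110 to 122 CPM (JeKo-1). The absence of reads in JeKo-1 therefore covered BCL2L11 and LOC541471, and well-expressed genes stood on each side. Deletions that remove BCL2L11 have been described in mantle cell lymphoma lines; DNA was not measured here, and a deletion was not tested.

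**Figure D3:**
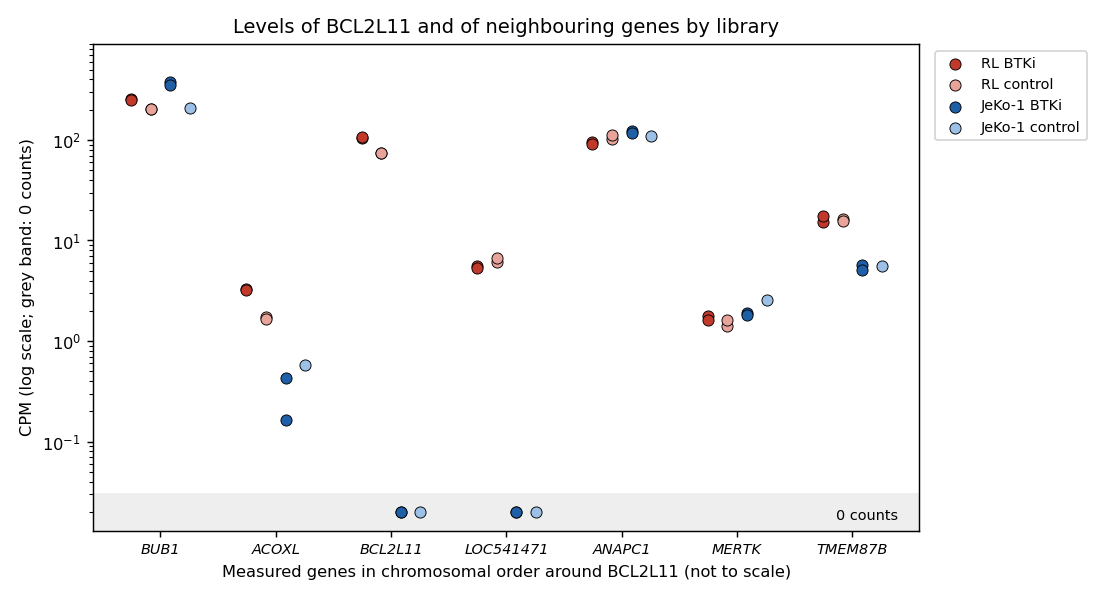
CPM (vertical axis, log scale) of BCL2L11 and of the measured genes next to it, in chromosomal order and not to scale, by library; points in the grey band have 0 reads. BCL2L11 and LOC541471 have 0 reads in every JeKo-1 library, and BUB1 and ANAPC1 are above 90 CPM in both lines.

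BMF, a BH3-only protein tied to the cytoskeleton and released by loss of attachment or survival signals, rose in both lines. BMF had 89.1 and 84.9 CPM in treated RL cells, against 52.1 and 51.1 CPM in untreated RL cells, a rise of 0.76 ± 0.05 on the log2 scale (adjusted p = 9.2e-07). BMF had 14.4 and 16.3 CPM in treated JeKo-1 cells, against 12.0 CPM in untreated JeKo-1 cells, a rise of 0.35 ± 0.11 (adjusted p = 0.0105). Both treated libraries lay above both untreated ones in RL, and above the single untreated library in JeKo-1. The JeKo-1 call was lost in 3 of 11 alternatives, among them the one without the second treated JeKo-1 library, with adjusted p over all 11 from 0.00675 to 0.303. The genes whose pattern was most like that of BMF, by the measure used for BCL2A1, were DNMBP, AP2A2, FAM53B, CLMN and APBB1 (r 0.9981 to 0.9991). For BCL2L11, whose pattern rests on RL alone, 4 of the 5 most alike were ABCG1, FXYD6, TSC22D3 and CRMP1 (r 0.9967 to 0.9996).

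BBC3 encodes PUMA, a BH3-only protein induced by p53 and by FOXO3. BBC3 had 2.54 and 3.19 CPM in treated RL cells, against 1.38 and 1.496 CPM in untreated RL cells, from 88 and 195 reads and from 60 and 70 reads. The treated libraries were both higher, and BBC3 rose by 1.03 ± 0.17 on the log2 scale (adjusted p = 6.8e-04). BBC3 had 1.13 and 1.76 CPM in treated JeKo-1 cells, against 1.09 CPM in the untreated library, a change of 0.40 ± 0.30 that did not pass (adjusted p = 0.352). That value was 0.70 without the first and 0.06 without the second treated JeKo-1 library.

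HRK encodes Harakiri, a BH3-only protein best known from neurons, and was the least abundant of the genes in RL. HRK had 34 and 37 reads in treated RL cells, against 5 and 8 reads in untreated RL cells, or 0.982 and 0.605 CPM against 0.115 and 0.171 CPM. All treated values exceeded the untreated ones, and HRK rose by 2.37 ± 0.42 on the log2 scale, 5.16-fold (adjusted p = 0.00115). HRK had 39 and 45 reads in treated JeKo-1 cells, against 13 reads in untreated JeKo-1 cells, or 1.10 and 1.22 CPM against 0.330 CPM, a rise of 1.799 ± 0.44 (adjusted p = 3.2e-04). HRK moved the same way in both lines from very few reads, and its JeKo-1 call was lost in 2 of 11 alternatives. The authors' deposited table gives HRK folds of 4.67 in RL and 3.69 in JeKo-1.

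BID is cleaved by caspase 8 and links death receptors to mitochondria, and its RNA fell in both lines. BID had 19.6 and 21.6 CPM in treated RL cells, against 34.3 and 34.4 CPM in untreated RL cells, a fall with log2 fold change -0.72 ± 0.06 (adjusted p = 7.3e-06). BID had 37.6 and 41.1 CPM in treated JeKo-1 cells, against 45.1 CPM in untreated JeKo-1 cells, a log2 fold change of -0.21 ± 0.08 (adjusted p = 0.0269). Both treated libraries lay below both untreated ones in RL, and below the single untreated library in JeKo-1. The JeKo-1 call was lost in 6 of 11 alternatives, with adjusted p from 0.0105 to 0.413. The 4-group model, with every library kept, was among them (adjusted p = 0.0757). The log2 fold change was -0.13 without the first and -0.25 without the second treated JeKo-1 library. Those fits also drew on the RL libraries, so a lost call cannot be put down to the library left out.

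BIK, a BH3-only protein of the endoplasmic reticulum, fell in JeKo-1. BIK had 0.905 and 1.22 CPM in treated JeKo-1 cells, against 3.71 CPM in untreated JeKo-1 cells, from 32 and 45 reads and from 146 reads. The control was the high library, and the log2 fold change was -1.803 ± 0.24, a 3.49-fold lower level (adjusted p = 7.9e-13), lost only in limma on the authors' log2 values. BIK had 2.02 and 1.68 CPM in treated RL cells, against 1.04 and 1.60 CPM in untreated RL cells. The RL change was 0.46 ± 0.21 (adjusted p = 0.131); it was 0.18 without the first untreated RL library (adjusted p = 0.638) and passed only without the second, at 0.81 (adjusted p = 0.0204).

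**Figure D4:**
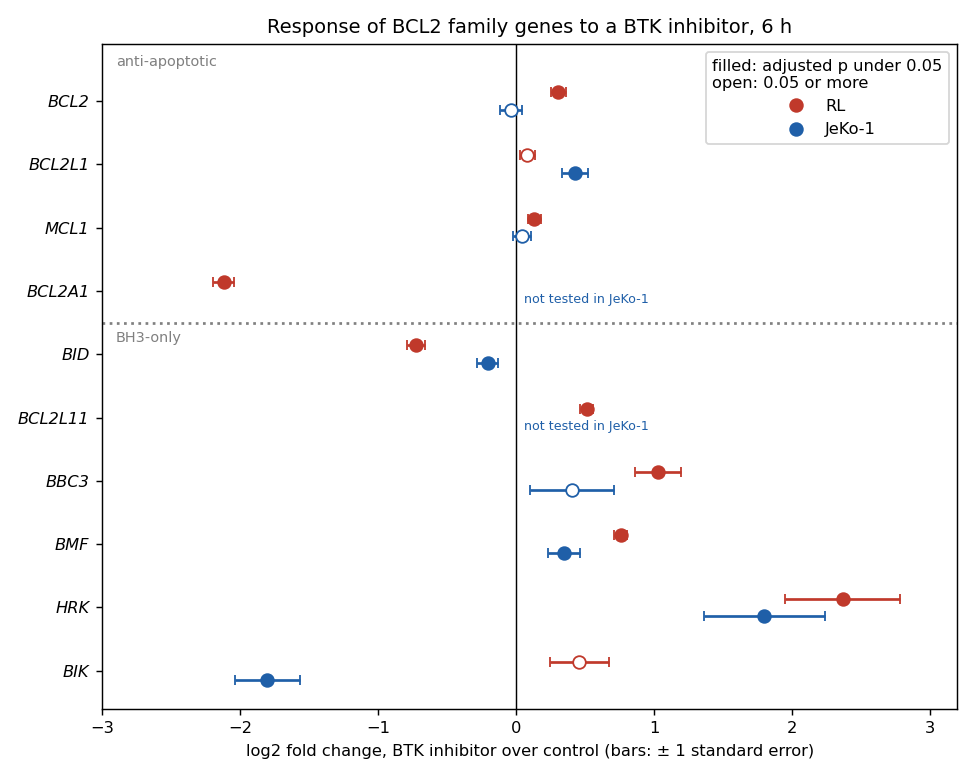
log2 fold change (horizontal axis; bars are 1 SE to each side) of each gene after 6 h of BTK inhibitor, over untreated cells of the same line; filled points passed the test. BCL2A1 lies at -2.12 in RL, HRK at 2.37 in RL and 1.799 in JeKo-1, and BIK at 0.46 in RL and -1.803 in JeKo-1.

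The difference between the responses of the lines was tested in one model of all 7 libraries. Of the 8 genes tested in both lines, 5 responded differently, where 20.7% of 13394 genes did so, 10.4% with a more positive and 10.3% with a more negative response in RL. The median difference of these 8 genes was 0.36 on the log2 scale, beside 0.00 to 2 decimals over all genes. BIK differed most, with the RL response 2.25 ± 0.32 above that in JeKo-1 on the log2 scale (adjusted p = 5.6e-05). The response of BID was more negative in RL by -0.53 ± 0.10 (adjusted p = 0.00111). Both BIK and BID kept this call in all 14 alternatives. Every alternative reused the only untreated JeKo-1 library, so they do not test how far the calls, above all that of BIK, rest on it. BMF rose more in RL, by 0.40 ± 0.11 (adjusted p = 0.0175). The response of BCL2, which did not pass in JeKo-1, was more positive in RL by 0.33 ± 0.09 (adjusted p = 0.0180). The response of BCL2L1, which did not pass in RL, was less positive there, with a difference of -0.36 ± 0.11 (adjusted p = 0.0229). These 3 calls were less stable, and 3 in all passed when either treated JeKo-1 library was left out. Without the first treated JeKo-1 library adjusted p was 0.0740 for BCL2 and 0.0835 for BMF, and without the second it was 0.05005 for BCL2 and 0.0802 for BCL2L1. The BCL2 call was also lost without the second treated RL library (adjusted p = 0.0569) and with its second transcript, at 0.19 (adjusted p = 0.374), the BMF call with DESeq2 (adjusted p = 0.0622) and the BCL2L1 call without the first untreated RL library (adjusted p = 0.0924). For MCL1 (0.08 ± 0.08, adjusted p = 0.565), BBC3 (0.61 ± 0.36, adjusted p = 0.287) and HRK (0.55 ± 0.66, adjusted p = 0.642) the difference did not pass.

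Untreated RL and JeKo-1 cells carried different BCL2 family profiles. Of the 10 genes, 8 differed between the lines, 6 higher and 2 lower in RL, where 76.4% of 15845 genes differed, 39.1% higher and 37.2% lower, so most genes of any kind would pass here. The median of the 10 log2 differences was 0.79, beside 0.05 over all genes. BCL2 was 9.71-fold higher in untreated RL, 3.28 ± 0.08 on the log2 scale (adjusted p = 1.3e-17). BMF (2.10 ± 0.09, adjusted p = 4.8e-14), BCL2L1 (1.14 ± 0.08, adjusted p = 2.6e-10) and MCL1 (0.43 ± 0.06, adjusted p = 2.1e-06) were also higher in RL. BIK and BID were lower in RL, at -1.48 ± 0.23 (adjusted p = 7.9e-06) and -0.39 ± 0.08 (adjusted p = 1.4e-04). BCL2A1 averaged 50.4 CPM in untreated RL, at least 170-fold above 0.296 CPM, the upper 95% Poisson bound of the 5 JeKo-1 reads. BBC3 (0.40 ± 0.29, adjusted p = 0.219) and HRK (-1.18 ± 0.62, adjusted p = 0.0899) did not pass. The JeKo-1 side is a single library, whose spread was taken from the other groups.

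Ordered by CPM per kilobase of the chosen transcripts, MCL1 came first in every group. The values depend on the choice, because other transcripts with nearly the same reads have GENCODE v29 matches of other lengths. BCL2A1 has 0.809 kb here and 1.033 kb by the match of NM_004049, which would lower its value. MCL1 has 3.932 kb here and 1.11 kb by the match of NM_182763. BMF has 4.545 kb here and 0.492 kb by the match of NM_001003942. These shorter lengths would raise both values. Whether they are the lengths of the counted transcripts was not checked. In treated RL cells the order was MCL1 (72.3 and 73.6), BCL2 (55.5 and 61.8), BCL2L11, BMF, BCL2L1, BCL2A1, BID, BIK, BBC3 and HRK, and no neighbours overlapped, although BIK (2.12 and 1.77) and BBC3 (1.39 and 1.75) nearly met. In untreated RL cells BCL2A1 (58.1 and 66.6) stood second and overlapped MCL1 (68.3 and 65.4), followed by BCL2 (47.1 and 48.2), BCL2L1, BCL2L11, BID, BMF, BIK, BBC3 and HRK. BCL2A1 thus held place 6 in treated RL and place 2 in untreated RL, BCL2L11 place 3 in treated and place 5 in untreated RL, and BMF place 4 in treated and place 7 in untreated RL. In JeKo-1 BID held place 2 behind MCL1, with 15.1 and 16.5 CPM per kilobase in treated cells, against 18.1 in untreated cells. BCL2L1 followed, then BCL2 with 4.77 and 4.85 in treated cells, against 4.91 in untreated cells. BMF held place 5 in treated JeKo-1 cells and place 6, behind BIK, in the untreated library. Among the genes with reads in treated JeKo-1 cells, only BIK (0.950 and 1.28) and BBC3 (0.619 and 0.964) overlapped.

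Genes around the family were read from 6 lists chosen by role. Their counts stand beside 15.1% higher and 15.3% lower among all genes tested in RL, and 13.4% higher and 14.9% lower in JeKo-1. The effectors BAX and BAK1 did not pass in either line, with log2 changes of 0.01 ± 0.06 and 0.03 ± 0.09 in RL (adjusted p = 0.893 and 0.869) and 0.05 ± 0.14 and -0.07 ± 0.10 in JeKo-1 (adjusted p = 0.850 and 0.644). PMAIP1, which encodes the BH3-only protein NOXA, gave -0.01 ± 0.10 in RL (adjusted p = 0.935). Of 13 other BCL2 family genes, 2 of 12 tested rose in RL (median 0.02), and 1 of 10 tested in JeKo-1 rose and 1 fell (median -0.03). BNIP3L, a mitophagy receptor with a BH3-like stretch, rose by 0.52 ± 0.12 in RL (adjusted p = 0.00746) and 0.30 ± 0.08 in JeKo-1 (adjusted p = 8.4e-04). BAD, a BH3-only protein held inactive by AKT, rose by 0.44 ± 0.10 in RL (adjusted p = 0.00564).

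Of 13 genes of the apoptosome and the caspases, 3 rose and 3 fell in RL (median 0.03), and of 12 tested in JeKo-1, 2 rose and 2 fell (median -0.05), where 30.4% of all genes passed in RL and 28.3% in JeKo-1. APAF1, the scaffold of the apoptosome, rose by 0.39 ± 0.06 in RL (adjusted p = 5.6e-04), while its ligand CYCS, cytochrome c, fell there, at -0.47 ± 0.07 (adjusted p = 5.2e-04). The scaffold and its ligand thus moved in opposite directions in RL, and in JeKo-1 APAF1 gave -0.24 ± 0.11 (adjusted p = 0.0652) and CYCS -0.08 ± 0.06 (adjusted p = 0.367).

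Of 6 inhibitors of apoptosis, 1 rose in RL (median -0.07), and 2 rose and 1 fell in JeKo-1 (median 0.19). BIRC3, which encodes the ubiquitin ligase cIAP2, averaged 40.9 CPM in treated JeKo-1 cells, against 17.03 CPM in untreated JeKo-1 cells, a rise of 1.26 ± 0.09 (adjusted p = 2.3e-42). BIRC3 averaged 301.8 CPM in treated RL cells, against 302.6 CPM in untreated RL cells, with a log2 change that did not pass (adjusted p = 0.970). BIRC5 (survivin, a mitotic protein) rose by 0.28 ± 0.05 in RL (adjusted p = 9.1e-04). Of 8 death receptor genes, 1 of 7 tested rose and 2 fell in RL (median -0.02), and 4 of 8 fell in JeKo-1 (median -0.22), where 14.9% of all genes fell. CFLAR, which encodes the caspase 8 inhibitor c-FLIP, fell in both lines, at -0.50 ± 0.06 in RL (adjusted p = 6.6e-05) and -0.62 ± 0.15 in JeKo-1 (adjusted p = 1.6e-04). TNFRSF10A, a TRAIL receptor, fell in JeKo-1, at -0.66 ± 0.17 (adjusted p = 6.9e-04).

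Of 12 partners and stability regulators of BCL2 proteins, 1 rose and 3 fell in RL (median 0.00 to 2 decimals), and 3 rose in JeKo-1 (median 0.00). MOAP1, a BAX activator, rose in both lines, by 0.46 ± 0.07 in RL (adjusted p = 2.9e-04) and 0.39 ± 0.10 in JeKo-1 (adjusted p = 0.00124). VDAC1, a channel of the outer mitochondrial membrane, fell in RL, at -0.37 ± 0.05 (adjusted p = 2.1e-04). Of 16 transcription factors known to control family genes, 3 rose and 6 fell in RL (median -0.08), and 6 fell in JeKo-1 (median -0.31), beside 15.3% of all genes lower in RL and 14.9% in JeKo-1. NFKB1 fell in both lines, at -0.73 ± 0.06 in RL (adjusted p = 2.5e-06) and -0.56 ± 0.09 in JeKo-1 (adjusted p = 7.9e-09), and so did NFKB2, at -0.76 ± 0.06 (adjusted p = 3.6e-06) and -0.75 ± 0.10 (adjusted p = 2.6e-13). RELB fell in both lines too, at -0.24 ± 0.07 in RL (adjusted p = 0.0158) and -0.73 ± 0.11 in JeKo-1 (adjusted p = 1.6e-09). REL and RELA did not follow in both lines. REL rose in RL, by 0.28 ± 0.05 (adjusted p = 0.00119), and fell in JeKo-1, at -0.45 ± 0.11 (adjusted p = 3.9e-04). RELA gave -0.03 ± 0.06 in RL (adjusted p = 0.732) and -0.06 ± 0.10 in JeKo-1 (adjusted p = 0.718). EGR1, an immediate early factor, averaged 0.417 CPM in treated RL cells, against 2.05 CPM in untreated RL cells, a fall of -2.25 ± 0.22 on the log2 scale (adjusted p = 1.4e-05). FOXO4, like REL and RELA picked out after its value was seen, rose by 0.70 ± 0.11 in RL (adjusted p = 6.7e-04) and gave -0.03 ± 0.20 in JeKo-1 (adjusted p = 0.930).

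**Figure D5:**
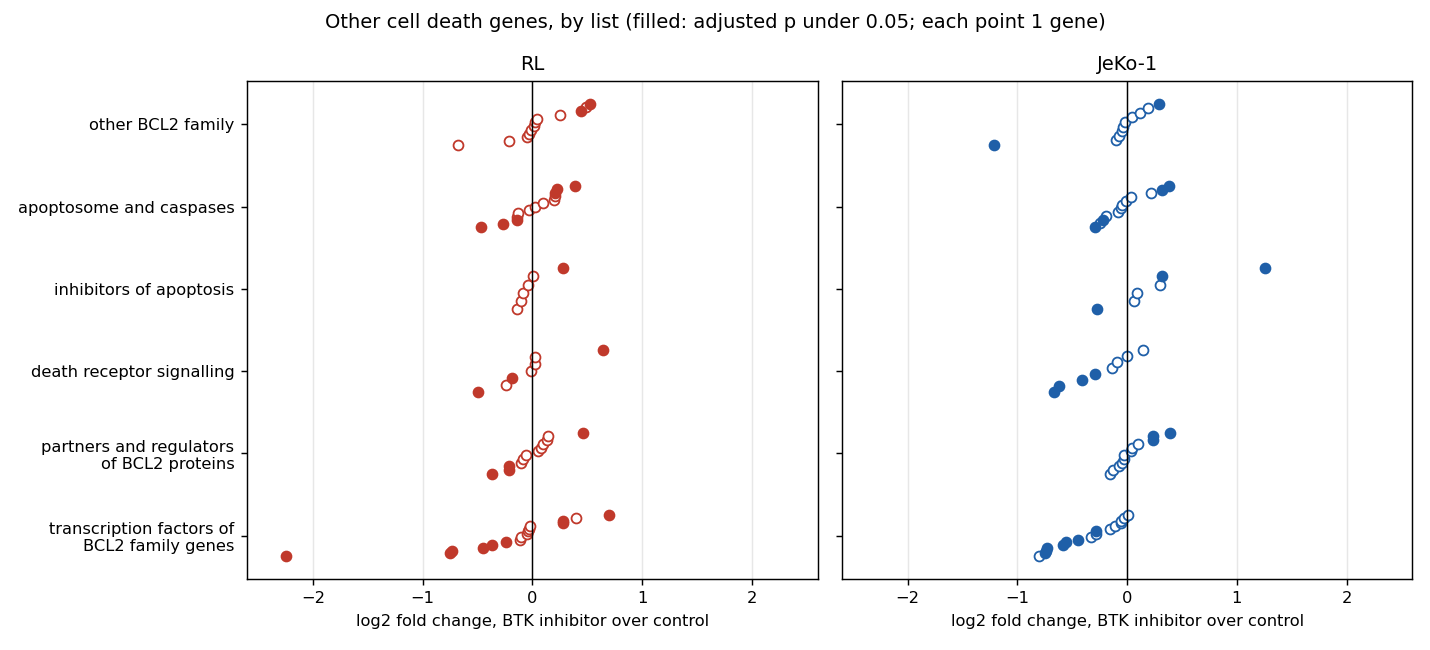
log2 fold change (horizontal axis) after 6 h of BTK inhibitor over untreated cells for the genes of 6 cell death lists, in RL and in JeKo-1; each point is 1 gene and filled points passed the test. List medians lie between -0.08 and 0.03 in RL, and BIRC3 is the high point at 1.26 in JeKo-1.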

How the data were processed

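Per the labels, the library kit was Illumina's TruSeq RNA kit. It does not mark strand, so overlapping and antisense genes cannot be told apart. The submitters' processing notes name BWA, CASAVA 1.8, Partek 6.6 and the build hg19 (GRCh37), with no role given. The tables hold, per the file headers, raw read counts for each RefSeq transcript and library. The columns headed FRKM hold deposited log2 values whose sorted values are equal within 0.01 at 95.2% of ranks in RL and 96.4% in JeKo-1 (values of at least 6), as after quantile normalization. Log2 ratios were deposited too, with an FDR and a p-value for RL by an unnamed test of the authors. The header of the JeKo-1 ratio names an ALK inhibitor, but the library columns beside it name the BTK inhibitor. In a further table the authors deposited a signed fold score for 3536 transcripts, with identical reads.

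Counts of all transcripts were tested as deposited with edgeR 4.0.16 (R 4.3.3; TMM, filterByExpr, quasi-likelihood test, Benjamini-Hochberg over transcripts, adjusted p under 0.05), RL alone, JeKo-1 alone, and all 7 libraries in 4 groups for the difference of responses and the untreated lines. Residual degrees of freedom were 2, 1 and 3, and SE is the log2 fold change divided by the square root of F. Transcripts of one gene largely repeat the same reads, so they were not summed, and the totals behind CPM include such repeats. Lengths are those of the matching GENCODE v29 transcripts, and may differ from those of the counted RefSeq transcripts. The genes, lists and tests were chosen with earlier results of these data known. Besides all 10 genes, up to 3 tested genes with the smallest p per line were open to naming from each list (some are not reported here), with BAX, BAK1 and PMAIP1 added for their role and the neighbours of BCL2L11, FOXO4, REL and RELA added after values were seen. Replicates differed by more than counting noise (chi-square per degree of freedom 3.41 to 4.55). Alternatives covered scaling, filtering, DESeq2 1.42.0, limma 3.58.1, the transcript that stands for a gene, a replicate block and leaving out libraries. JeKo-1 fits with a treated library left out used all remaining libraries of both lines, unlike the main JeKo-1 fit.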

Additional observations from a re-analysis of the deposited data

Results flagged for a closer look

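Of the 8 genes tested in both lines, 5 had responses to the inhibitor that differed between RL and JeKo-1 by a test of the difference itself (edgeR quasi-likelihood test, Benjamini-Hochberg adjusted p), where 20.7% of 13394 genes did. Without the first or the second treated JeKo-1 library 3 passed: BCL2 was lost in both cases, BMF without the first and BCL2L1 without the second. Each value is the log2 response in RL less that in JeKo-1. BIK gave 2.25 (adjusted p = 5.6e-05), with a log2 change of 0.46 in RL and -1.803 in JeKo-1. BID gave -0.53 (adjusted p = 0.00111) and fell in both lines. BMF gave 0.40 (adjusted p = 0.0175) and rose in both lines. BCL2 gave 0.33 (adjusted p = 0.0180), and passed the test in RL alone. BCL2L1 gave -0.36 (adjusted p = 0.0229), and passed the test in JeKo-1 alone.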

How the results depend on the processing

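In RL, 7 or 8 of the 10 genes passed under every alternative, and untreated RL against untreated JeKo-1 gave 8 throughout. In JeKo-1 the count of 5 was 2 with DESeq2 and 0 with limma on the authors' log2 values (3 at an unadjusted p under 0.05), and 3 to 4 when a treated library was left out; it could not be fitted without the only control. The count of 5 differing responses was 3 without the first and 3 without the second treated JeKo-1 library, and 3 to 5 over all libraries left out. Replicate numbers did not pair the RL libraries (r = -0.04 between same-numbered deviations); with the replicate number as a block, 7 genes passed in RL and 4 differed between lines, BCL2L1 being lost at -0.29 (adjusted p = 0.0931). No block could be fitted in JeKo-1. The JeKo-1 fits with a treated library left out also drew on the RL libraries, so they differ from the main fit in more than that library.

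None of the values that changed sign had passed the test, and the cause was not tested. In JeKo-1, limma on the authors' log2 values turned MCL1 to -0.029, BAD to 0.060 and BIRC5 to -0.026, and the second transcript turned BCL2 to 0.051. In RL, BIRC3 was -0.0029 in the 4-group model, -0.0035 with DESeq2, -0.0036 with RLE scaling and -0.0032 unfiltered, and RIPK1 was -0.022 with limma on the authors' values. With 1 library left out at a time, the log2 changes ran from -0.21 to 0.14 for BAD and from -0.025 to 0.0077 for VDAC1 in JeKo-1, and in RL from -0.056 to 0.055 for BIRC3, from -0.0077 to 0.79 for BNIP3, from -0.0087 to 0.053 for RIPK1 and from -0.073 to 0.13 for TNFRSF10A. HRK, BIK and BBC3 rest on 5 to 195 reads a library, which limits their precision.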

Other observations

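EPCAM, an epithelial adhesion molecule, had 82.0 and 79.5 CPM in treated RL cells, against 78.7 and 75.6 CPM in untreated RL cells, and 0 reads in all 3 JeKo-1 libraries. Farther from BCL2L11 on chromosome 2, FBLN7 ranged over 2.51 to 3.06 CPM (RL libraries) and 0.0254 to 0.0813 CPM (JeKo-1 libraries), TMEM87B over 15.2 to 17.7 and 5.04 to 5.74 CPM, and MERTK over 1.43 to 1.79 and 1.82 to 2.56 CPM, in the same order of lines. These genes were examined after the values of BCL2L11 had been seen.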
